A study of Mus musculus with 75 samples.

Results

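The 34 genes described here carry fatty acids from the blood into the muscle fibre, release them from stored fat, bring them into the mitochondrion and oxidise them there. They were chosen by symbol as a pathway, and all 34 were found among the 13856 genes of the deposited table. Of these, 6 act in uptake and activation (Cd36, Fabp3, Slc22a5, Acsl1, Lpl and Angptl4), 5 in lipid droplets and lipolysis (Pnpla2, Lipe, Mgll, Plin2 and Plin5) and 5 in the carnitine shuttle (Cpt1b, Slc25a20, Cpt2, Crat and Mlycd). A further 4 are acyl-CoA dehydrogenases (Acadvl, Acadl, Acadm and Acads), 5 serve the later steps of the spiral (Hadha, Hadhb, Hadh, Echs1 and Acaa2), 3 are auxiliary enzymes for unsaturated chains (Eci1, Eci2 and Decr1), 3 pass the electrons on (Etfa, Etfb and Etfdh) and 3 are regulators or uncouplers (Ppara, Ppard and Ucp3).

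The libraries are RNA sequencing of gastrocnemius, a calf muscle, from male and female Balb/c mice. Mice received C26 cells, a mouse colon carcinoma line that causes muscle wasting, on both sides, or PBS as the tumour-free control, and muscle was taken on day 25. From day 12, C26 mice received saline, 5-fluorouracil (an antimetabolite), paclitaxel (a microtubule drug) or cisplatin (a platinum drug that damages DNA), dosed at 75% of the highest tolerated amount, with 2 injections per week over 2 cycles, and PBS mice received saline. All drug-treated mice carried the tumour, so no group shows a drug alone. Of PBS libraries there were 7 from females and 8 from males, of C26 saline 7 and 8, of 5-fluorouracil 8 and 8, of paclitaxel 7 and 6 and of cisplatin 6 and 8. That the libraries of a group are separate animals is the plain reading of the labels, but no animal number is given, and the p-values hold for the spread among these libraries, which may be technical.

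As background, muscle takes up long fatty acids that lipoprotein lipase frees from blood lipoproteins, with the help of the membrane protein CD36. Inside the fibre they are activated to acyl-CoA, either used at once or stored in droplets, and moved into mitochondria as carnitine esters by CPT1 and CPT2, the step that malonyl-CoA restrains. Each turn of beta-oxidation then dehydrogenates, hydrates, dehydrogenates again and cleaves the chain, and electrons leave through the electron transfer flavoprotein. The nuclear receptors PPARα and PPARδ switch on many of these genes during fasting and exercise.

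Promoters of 4 members on which the results turn are shown because 3 of them (Lipe, Eci2 and Echs1) rose with the tumour in males or in both sexes, while Hadhb is read away from Hadha at 1 shared promoter and its level parted from that of its partner between libraries. Each line is the 250 bases before the annotated start, 5′ to 3′ on the strand of the gene, from RefSeq on GRCm38.p6. The capitals mark matches, on either strand, to the letters AGGTCA (a nuclear receptor half-site), to TGTTTAC (a forkhead site), to GGGCGG (the box that Sp1 binds) or to CCAAT (the box that NF-Y binds).
Lipe: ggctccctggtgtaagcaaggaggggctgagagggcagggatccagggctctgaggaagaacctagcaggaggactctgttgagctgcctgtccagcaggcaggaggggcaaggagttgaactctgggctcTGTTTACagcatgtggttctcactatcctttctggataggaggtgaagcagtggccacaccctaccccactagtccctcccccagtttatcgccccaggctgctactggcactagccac
Eci2: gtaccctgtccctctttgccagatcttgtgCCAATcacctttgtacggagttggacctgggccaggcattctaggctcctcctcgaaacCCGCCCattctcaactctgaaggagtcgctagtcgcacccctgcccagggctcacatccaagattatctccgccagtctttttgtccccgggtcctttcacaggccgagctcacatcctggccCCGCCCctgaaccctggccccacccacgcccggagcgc
Echs1: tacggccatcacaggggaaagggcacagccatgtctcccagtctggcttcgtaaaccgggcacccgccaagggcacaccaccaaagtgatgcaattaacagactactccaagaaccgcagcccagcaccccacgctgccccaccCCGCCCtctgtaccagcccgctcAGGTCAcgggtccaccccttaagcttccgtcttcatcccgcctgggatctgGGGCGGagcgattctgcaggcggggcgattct
Hadhb: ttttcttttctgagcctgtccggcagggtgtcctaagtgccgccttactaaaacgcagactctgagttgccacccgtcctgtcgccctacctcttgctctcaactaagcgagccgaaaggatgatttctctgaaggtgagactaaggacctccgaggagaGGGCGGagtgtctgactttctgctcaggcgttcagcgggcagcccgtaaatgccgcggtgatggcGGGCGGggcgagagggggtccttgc
The windows lie at chr7:25390113-25390362, minus strand (Lipe), chr13:34994145-34994394, minus strand (Eci2), chr7:140116422-140116671, minus strand (Echs1) and chr5:30155003-30155252, plus strand (Hadhb). The Hadhb window holds GC boxes and the Lipe window a forkhead match, Echs1 carries a half-site between a pair of GC boxes, and Eci2 has a CCAAT box and GC boxes. A second annotated Lipe start, not printed, has 6 GC boxes, of which 2 overlap each other. Hadha and Hadhb, which encode the α and β subunits of the mitochondrial trifunctional protein, start 273 bases apart on chromosome 5 in opposite directions, and their upstream windows share 228 bases. Over 32 windows of the 28 members that the table holds, GC boxes were in 20, CCAAT in 11, the half-site in 7 and the forkhead site in 2, and over all 32851 windows of the same length the shares were 32.7%, 33.8%, 14.0% and 3.17%. A direct repeat of the half-site with 1 base between, the DR1 repeat, was in none of the members' windows and in 0.0335% of all windows. Lpl, Angptl4, Cpt1b, Crat, Acaa2 and Decr1 have no entry. These matches describe letters and no binding was measured.

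Values below are the authors' log2 expression per library, and a log2 change is the difference between group means from limma with its standard error (SE). A gene was called when its adjusted p was under 0.05 over all 13856 genes, and "rose" and "fell" are used of called genes alone. Estimated depth was 11.4 to 40.5 M counts per library. Libraries also differed in the dependence of expression on transcript GC content: its slope, in log2 units per SD of GC content, was above 0.1 in 19 of the 73 libraries, among them 4 of 6 male paclitaxel and 4 of 8 male 5-fluorouracil libraries but 0 of 8 male C26 saline libraries. In these 19 libraries the median share of mitochondrially encoded transcripts was 2.58%, against 10.5% in the others. Groups therefore differed in slope, and the called changes of the male drug comparisons below are given also with the slope as a covariate or without the 19 libraries.

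With the tumour alone, 2 of 6 uptake genes and 2 of 5 droplet and lipolysis genes rose in males, and of these 11 genes only Lipe rose in females. In males 6 of 34 members rose (Cd36, Lpl, Pnpla2, Lipe, Echs1 and Eci2) and 1 fell (Hadh), and over all genes 26.1% were called, 13.1% upward and 13% downward. In females 2 of 34 rose (Lipe and Eci2) and 0 fell, against 6.7% of all genes called, 4.14% upward and 2.56% downward. The members' share called was 20.6% in males and 5.88% in females, each below its background. The median log2 change of the 34 members was 0.13 in females and 0.06 in males, beside −0.01 and 0.00 for all genes.

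**Figure D1:**
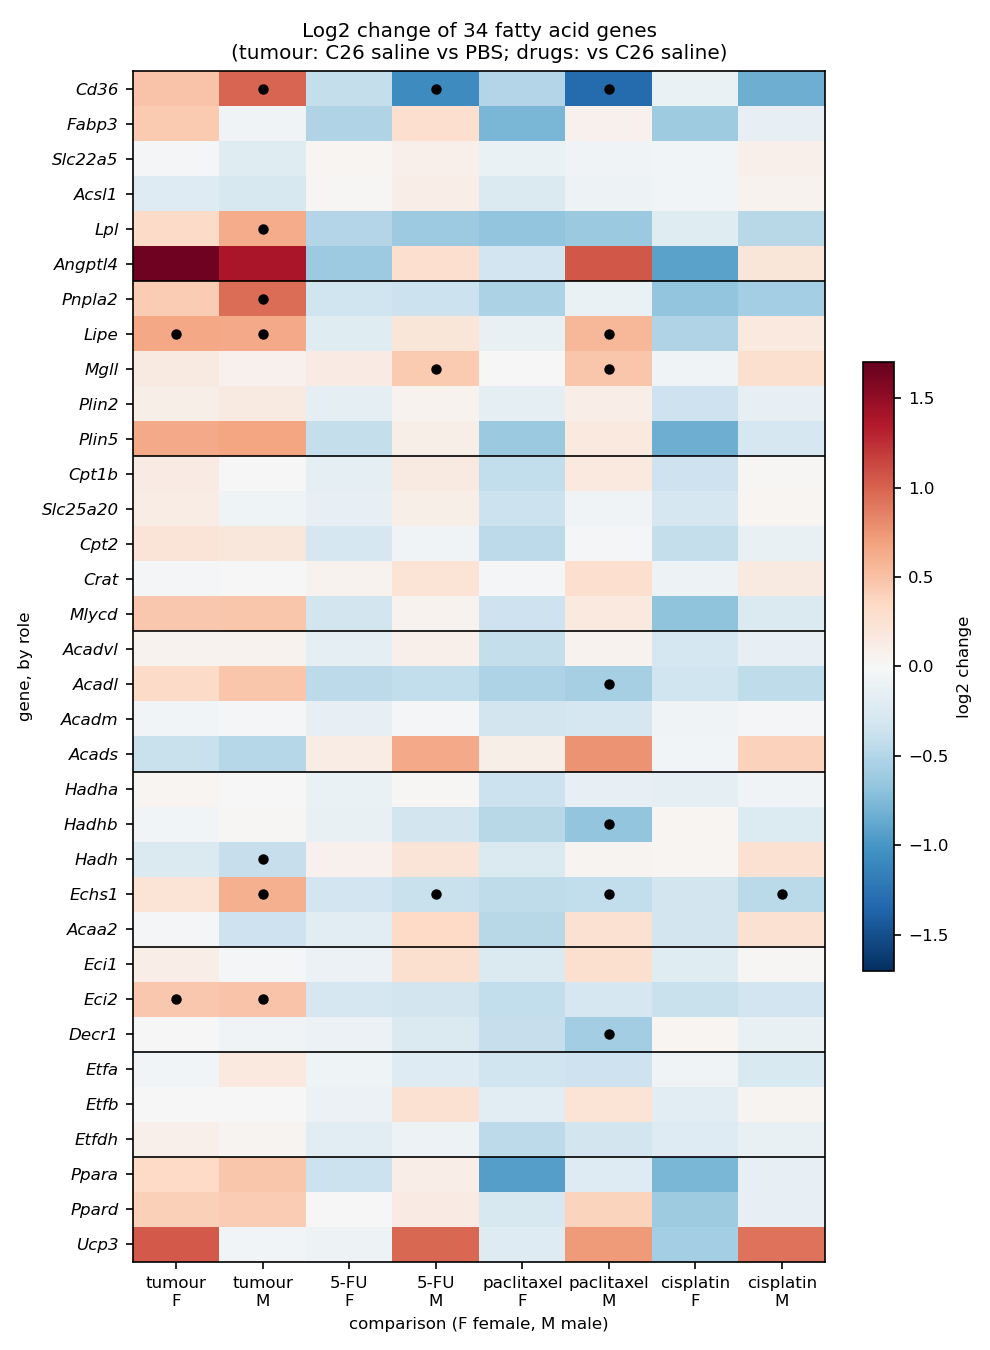
Log2 change of each of the 34 genes (rows, grouped by role) in the tumour comparison (C26 saline against PBS) and in each drug comparison (drug against C26 saline) for females (F) and males (M), with a colour scale in log2 units and a black dot where the gene was called. Dots fall on 2 genes for the female tumour comparison, on 7 for the male one, and on 0 in the 3 female drug columns.

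Cd36, the membrane protein that carries long fatty acids into the fibre, read 6.75, 7.86 and 8.22 (lowest, median and highest) in male PBS libraries and 8.21, 8.69 and 9.61 in male C26 saline libraries. Of the 8 tumour libraries 7 were above every PBS library, and the log2 change was 1.00 ± 0.32 (SE, adjusted p = 0.0156). In females Cd36 read 6.91, 7.68 and 8.09 in PBS and 6.55, 8.18 and 9.03 in C26 saline libraries. The female groups overlapped widely, with 1 tumour library below every PBS library, and the log2 change of 0.48 ± 0.35 was not called (adjusted p = 0.497). With GC slope as a covariate the female change was 0.60 and was called (adjusted p = 0.0270).

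Lpl, the lipoprotein lipase, read 8.37, 9.13 and 9.41 in male PBS and 8.63, 9.61 and 10.57 in male C26 saline libraries. Of 8 tumour libraries 6 lay above the PBS range and the log2 change was 0.63 ± 0.24 (adjusted p = 0.0410). The call was also lost with quantile normalization (0.62, adjusted p = 0.0526) and without the libraries of slope above 0.1 (0.52, adjusted p = 0.0637). It was lost as well, at log2 changes of 0.50 to 0.64 and adjusted p of 0.0510 to 0.125, when male PBS replicate 2, 4, 6 or 7 or male C26 saline replicate 1, 2, 3, 5 or 7 was left out. Female Lpl read 8.74, 9.10 and 9.48 in PBS and 8.71, 9.71 and 9.85 in C26 saline, a log2 change of 0.33 ± 0.25 (adjusted p = 0.545). Angptl4, which encodes a secreted inhibitor of lipoprotein lipase, had the highest positive change of all members in both sexes but with a wide spread. It read 0.88, 2.92 and 3.26 in female PBS and 3.24, 4.30 and 4.58 in female C26 saline, and 0.22, 2.71 and 3.49 and 0.31, 4.82 and 5.25 in the male groups. In males, 3 tumour libraries stayed at 0.31 to 2.61 while the other 5 were at 4.71 to 5.25, and neither the female change of 1.66 ± 0.77 nor the male change of 1.38 ± 0.72 was called (adjusted p = 0.211 and 0.153). Fitted on the female PBS and C26 saline libraries alone, the female change of 1.66 was called (adjusted p = 0.00852), as was that of Ucp3 (1.04, adjusted p = 0.0176). The other uptake genes were not called, with log2 changes from −0.28 to 0.45 in both sexes: Fabp3 binds fatty acids in the cytosol, Slc22a5 imports carnitine and Acsl1 makes acyl-CoA. With quality weights male Acsl1 was called, lower in C26 saline than in PBS (−0.34, adjusted p = 0.0254).

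Pnpla2, the triglyceride lipase ATGL that starts lipolysis, read 7.50, 7.83 and 8.30 in male PBS and 7.93, 8.85 and 9.18 in male C26 saline libraries. All but 1 tumour library exceeded every PBS library, with a log2 change of 0.96 ± 0.24 (adjusted p = 0.00157). Female values were 7.42, 7.70 and 8.08 in PBS and 7.39, 8.18 and 9.02 in C26 saline, with groups that overlapped and a log2 change of 0.43 ± 0.26 (adjusted p = 0.385). The female C26 saline libraries spanned more than the PBS libraries at both ends.

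Lipe, hormone-sensitive lipase, acts on the diglyceride that ATGL leaves and was called in both sexes. It read 4.67, 5.32 and 5.74 in female PBS and 5.74, 5.88 and 6.44 in female C26 saline, and 4.65, 4.90 and 5.29 in male PBS and 4.98, 5.65 and 6.10 in male C26 saline. In total, 6 of 7 female and 6 of 8 male tumour libraries were above all PBS libraries of their sex. The log2 change was 0.66 ± 0.20 in females (adjusted p = 0.0316) and 0.64 ± 0.19 in males (adjusted p = 0.00744). The female call was lost without PBS replicate 3 or 7 or C26 saline replicate 1, 6 or 7, at log2 changes of 0.55 to 0.65 and adjusted p of 0.0558 to 0.106. The other droplet genes were not called: log2 changes in females and males were 0.16 and 0.07 for Mgll (monoglyceride lipase), 0.10 and 0.15 for Plin2 (a droplet coat protein) and 0.64 and 0.67 for Plin5 (the coat protein of oxidative tissues). Plin2 read 4.51, 4.85 and 5.15 in female PBS, 4.62, 4.89 and 5.17 in female C26 saline, 4.64, 5.04 and 5.49 in male PBS and 4.64, 5.16 and 5.55 in male C26 saline, so its tumour and PBS libraries covered almost the same range.

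Expression in whole muscle mixes cell types, and fewer cells of a type and less RNA per cell cannot be told apart in it. Of 8 adipocyte markers 0 were called in the female tumour comparison and in males 0 rose and 1 fell, with summed levels of 185 to 475 in female PBS, 297 to 385 in female C26 saline, 144 to 243 in male PBS and 202 to 385 in male C26 saline, in linear units of the authors' scale (2 raised to the log2 value). Of 6 neutrophil markers 6 rose in each sex, with medians of the summed level of 1.62 and 10.8 in female and 2.02 and 24.8 in male PBS and C26 saline libraries. Macrophage markers rose in 4 (females) and 6 (males) of 8. Of 8 endothelial markers 0 rose and 1 fell in females, and 2 rose and 2 fell in males. Slow fibre markers gave 0 calls, and 3 of 8 fast fibre markers fell in males. Their part in the changes of the members was not tested. No marker of these lists was at the lowest value in every library of a group, and the muscle markers were high throughout (summed level of 61414 or more).

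**Figure D2:**
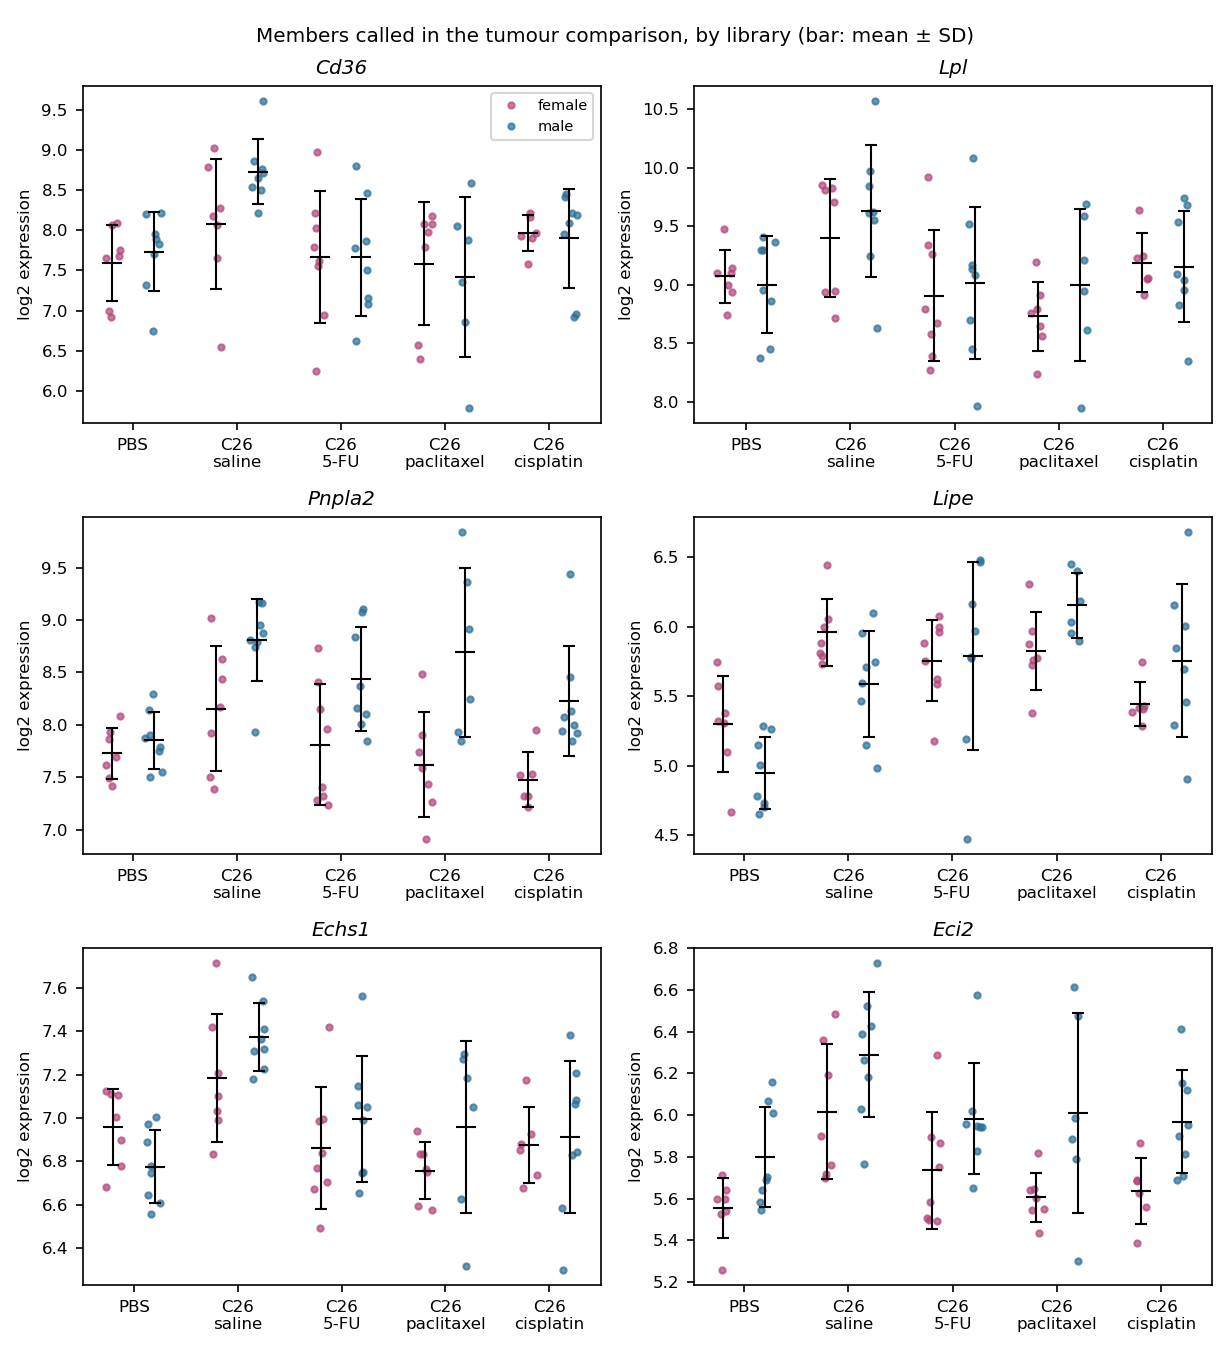
Log2 expression of 6 genes called in the tumour comparison, 1 point per library, by treatment arm (x axis) and sex (colour), with the black bars giving mean ± SD of each group. Male Echs1 values in C26 saline (7.18 to 7.65) lie above all male PBS values (6.56 to 7.00), and Lipe is higher in C26 saline than in PBS in both sexes.

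The carnitine shuttle and the acyl-CoA dehydrogenases showed 0 called members of 9 in either sex with the tumour, beside 6.7% of all genes in females and 26.1% in males. So few genes cannot show that these steps were unchanged. Cpt1b, the muscle form of carnitine palmitoyltransferase 1 and the gate to the mitochondrion, read 8.10, 8.25 and 8.66 in female PBS and 8.02, 8.42 and 8.78 in female C26 saline, and 8.17, 8.46 and 8.86 and 8.03, 8.55 and 8.78 in the male groups. Its log2 change was 0.14 ± 0.16 in females and −0.01 ± 0.15 in males, and the ranges of tumour and PBS libraries overlapped almost in full. Acadm, the medium-chain acyl-CoA dehydrogenase, read 8.21, 8.25 and 8.42 and 7.60, 8.44 and 8.55 in female PBS and C26 saline, and 8.11, 8.41 and 8.84 and 7.75, 8.43 and 8.80 in males. Its log2 change was −0.05 ± 0.18 in females and −0.04 ± 0.17 in males. Plus or minus 2 SE, the male change ran from −0.38 to 0.30, so a shift within that span could not be told from none. Acadl, the long-chain enzyme, read 7.56, 8.08 and 8.55 in male PBS and 8.14, 8.52 and 8.95 in male C26 saline, with all 8 tumour libraries above the PBS mean, and its log2 change of 0.47 ± 0.19 missed the threshold (adjusted p = 0.0524). Under 6 alternatives Acadl was called in males, at log2 changes of 0.43 to 0.47 and adjusted p of 0.0266 to 0.0493. These were quantile normalization, the filter on low values, quality weights, the replicate block, the slope covariate and the fit of only the groups compared. Mlycd, which degrades malonyl-CoA and so relieves CPT1, had log2 changes of 0.45 in females and 0.47 in males that were not called. In males Mlycd was called with the slope as a covariate (0.49, adjusted p = 0.0245), without the libraries of slope above 0.1 (0.60, adjusted p = 0.00836) and with quality weights (0.49, adjusted p = 0.0233). The other genes of these groups, Slc25a20, Cpt2, Crat, Acadvl and Acads, ranged from −0.49 to 0.22.

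Echs1, the short-chain enoyl-CoA hydratase of the hydration step, was the member with the smallest adjusted p in the male tumour comparison. It read 6.56, 6.76 and 7.00 in male PBS and 7.18, 7.34 and 7.65 in male C26 saline, and the groups did not overlap. The log2 change was 0.60 ± 0.13 (adjusted p = 0.000197). In females it read 6.68, 7.01 and 7.12 in PBS and 6.84, 7.10 and 7.71 in C26 saline, with overlap and a log2 change of 0.23 ± 0.14 (adjusted p = 0.381). Eci2, an enoyl-CoA isomerase for unsaturated chains found in mitochondria and peroxisomes, was called in both sexes: it read 5.26, 5.60 and 5.71 in female PBS, 5.70, 5.90 and 6.48 in female C26 saline, 5.54, 5.70 and 6.16 in male PBS and 5.77, 6.33 and 6.73 in male C26 saline. The log2 change was 0.46 ± 0.14 (adjusted p = 0.0346) in females and 0.49 ± 0.13 (adjusted p = 0.00384) in males, with 6 of 7 and 6 of 8 tumour libraries above all PBS libraries. The female call was lost, at log2 changes of 0.39 to 0.46 and adjusted p of 0.0532 to 0.141, without PBS replicate 1, 3 or 6 or C26 saline replicate 1, 3 or 6. Without female PBS replicate 3 or C26 saline replicate 1 or 6, 0 members were called in females, and without 1 of the other libraries named for Lipe or Eci2 it was 1.

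Hadh, the short-chain 3-hydroxyacyl-CoA dehydrogenase, moved the other way. It read 7.34, 7.67 and 8.07 in male PBS and 6.51, 7.31 and 7.72 in male C26 saline, with 4 tumour libraries below every PBS library and a log2 change of −0.39 ± 0.15 (adjusted p = 0.0372). The male call was lost, at log2 changes of −0.37 to −0.28 and adjusted p of 0.0647 to 0.152, without PBS replicate 1, 2 or 5 or C26 saline replicate 1, 5, 6 or 8. It was also lost when only the groups compared were fitted (−0.39, adjusted p = 0.0693). Female Hadh read 7.21, 7.35 and 7.66 in PBS and 6.95, 7.17 and 7.40 in C26 saline, all 7 tumour libraries below the PBS mean, and its change of −0.25 ± 0.16 was not called (adjusted p = 0.414). Hadha read 8.49, 8.68 and 8.94 and 8.43, 8.76 and 9.11 in female PBS and C26 saline and 8.68, 8.95 and 9.32 and 8.46, 8.99 and 9.27 in males. Its log2 change was 0.03 ± 0.15 in females and 0.01 ± 0.14 in males. Hadhb read 7.95, 8.29 and 8.77, 7.31, 8.31 and 8.80, 7.98, 8.64 and 9.02 and 8.01, 8.65 and 9.23 in the same order, with changes of −0.04 and 0.03, and Decr1, the 2,4-dienoyl-CoA reductase, read 6.11, 6.26 and 6.65, 5.34, 6.42 and 6.84, 6.26, 6.80 and 7.25 and 6.09, 6.77 and 7.36, with changes of −0.01 and −0.06. Acaa2 (the thiolase), Eci1 and the 3 electron transfer genes were not called, with log2 changes from −0.35 to 0.16.

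Ucp3, a mitochondrial carrier of muscle that rises in fasting, read 6.95, 7.88 and 8.79 in female PBS and 8.41, 8.81 and 9.49 in female C26 saline. All 7 female tumour libraries were above the PBS mean and 4 above every PBS library, yet the log2 change of 1.04 ± 0.46 was not called (adjusted p = 0.183). In males it read 7.04, 8.06 and 8.58 in PBS and 6.05, 8.01 and 9.73 in C26 saline, a log2 change of −0.05 ± 0.43, with tumour libraries both above and below the PBS range. The sex difference of the tumour effect on Ucp3, male minus female, was −1.09 ± 0.62 (adjusted p = 0.710). Ppara read 2.81, 3.35 and 3.92 and 3.03, 3.71 and 4.16 in female PBS and C26 saline and 2.49, 2.98 and 3.94 and 2.57, 3.51 and 4.44 in males, with log2 changes of 0.34 and 0.47, and those of Ppard were 0.41 and 0.44. Neither receptor was called in either sex, and the groups overlapped. Male Ppard was called under 4 alternatives: the slope as a covariate (0.47, adjusted p = 0.00606), no libraries of slope above 0.1 (0.54, adjusted p = 0.00177), quality weights (0.48, adjusted p = 0.0147) and only the groups compared (0.44, adjusted p = 0.0306). Female Ppard was called without the libraries of slope above 0.1 (0.46, adjusted p = 0.0442).

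When the female and male tumour effects were averaged in the same fit, a contrast added after the single-sex values had been seen, 10 of 34 members rose and 1 fell, against 29.9% of all genes (15.4% upward and 14.5% downward). The 10 were the 6 called in males together with Angptl4 (1.52 ± 0.52, adjusted p = 0.0207), Mlycd (0.46 ± 0.17, adjusted p = 0.0269), Acadl (0.40 ± 0.14, adjusted p = 0.0213) and Ppard (0.42 ± 0.16, adjusted p = 0.0420), and Hadh fell by 0.32 (adjusted p = 0.0167). These values rest on the same libraries as the single-sex values. Calls ended without female C26 saline replicate 1 (Acadl and Lpl), female C26 saline replicate 6, male PBS replicate 4 or 7 or male C26 saline replicate 7 (Lpl), or male PBS or C26 saline replicate 3 (Mlycd), at adjusted p of 0.0502 to 0.0620. The Ppard call ended, at adjusted p of 0.0510 to 0.0894, without female PBS replicate 1, 2, 3 or 7, female C26 saline replicate 6 or 7, male PBS replicate 5, 6 or 7 or male C26 saline replicate 1, 3, 4 or 5. Other members were called under alternatives. Acsl1 was lower with quantile normalization, quality weights and the slope covariate (−0.26 to −0.23, adjusted p = 0.0287 to 0.0396). Acads was lower with the covariate (−0.45, adjusted p = 0.0246). With quality weights Plin5, Cpt2 and Ppara were higher (0.65, 0.23 and 0.46, adjusted p = 0.0130, 0.0303 and 0.0242).

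**Figure D3:**
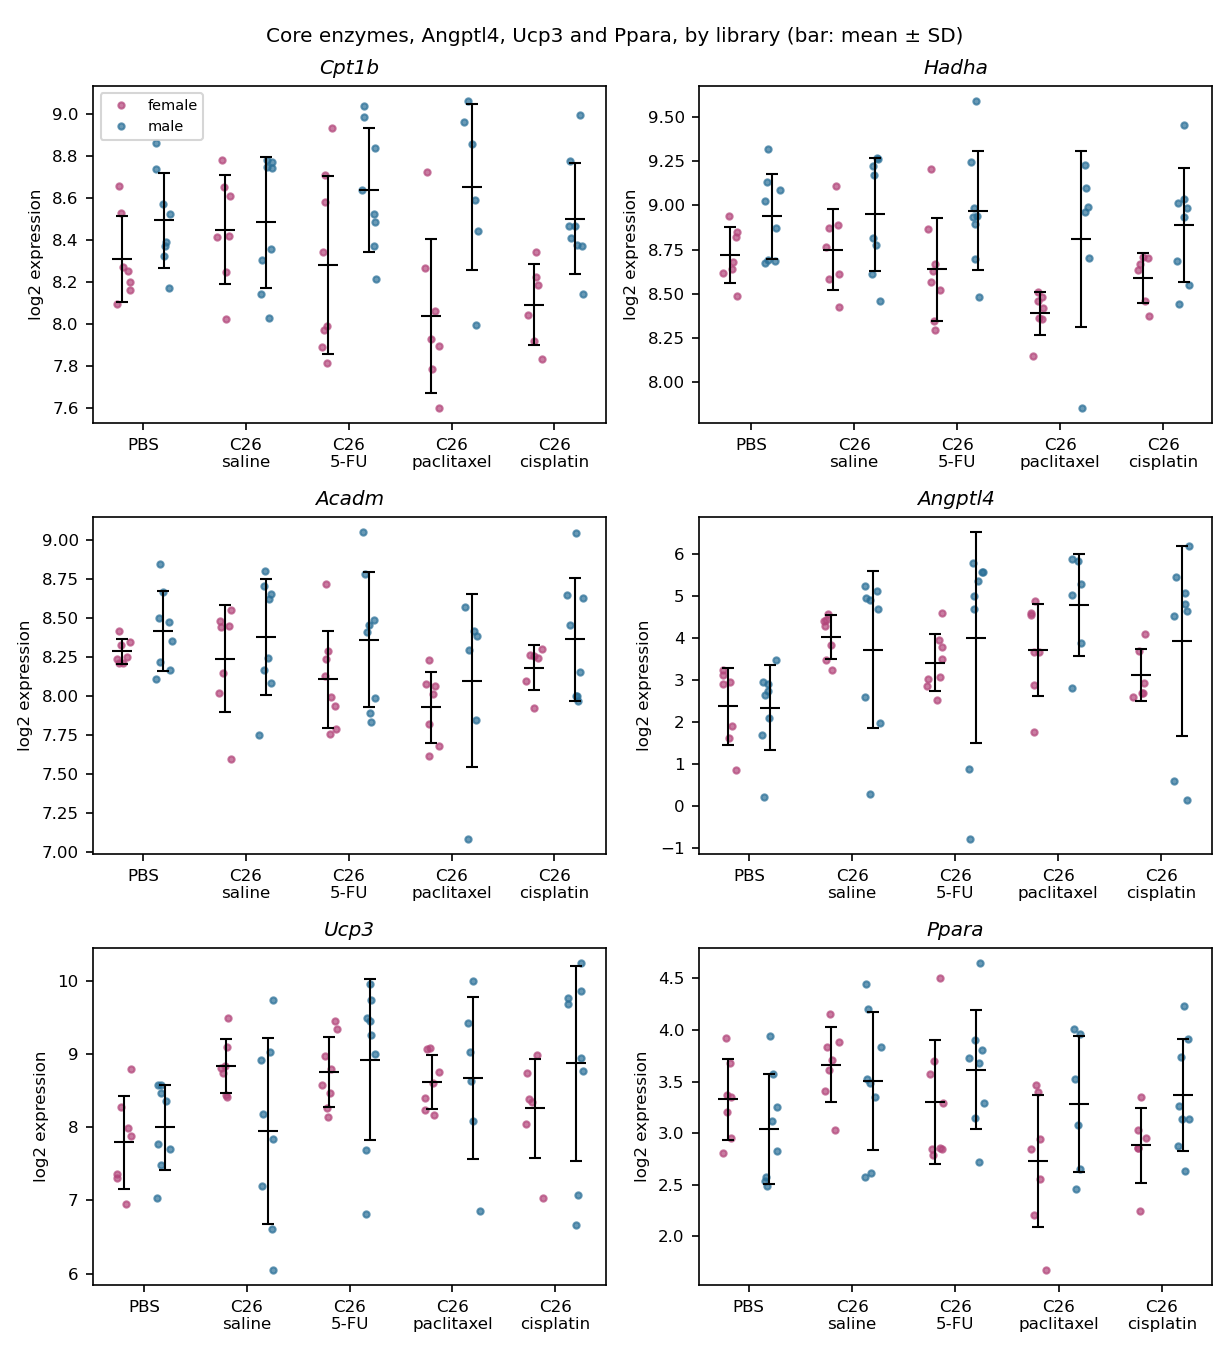
Log2 expression of Cpt1b, Hadha, Acadm, Angptl4, Ucp3 and Ppara, 1 point per library, by treatment arm and sex, with the black bars giving mean ± SD of each group. Cpt1b, Hadha and Acadm differ little between PBS and C26 saline, while Angptl4 and Ucp3 spread over several log2 units within male groups.

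All drug comparisons below share the C26 saline libraries of their sex with the tumour comparison, so a C26 saline mean that stands high by chance moves both in opposite directions. In females 0 of 34 members were called for 5-fluorouracil, paclitaxel or cisplatin against C26 saline, where 1.35%, 0% and 1.66% of all genes were called. At an unadjusted p under 0.05 there were 4, 13 and 10 members, beside 10%, 6.1% and 18% of all genes, and 6, 2 and 3 of 34 log2 changes were above 0. The median log2 change of the members was −0.16, −0.36 and −0.29, beside 0.01, 0.00 and 0.00 for all genes, and correlated members of a pathway are not independent counts. With limma's sample weights 4, 4 and 8 members were called, all lower in the drug group, beside 7.12%, 0.852% and 16.8% of all genes.

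Among the female values, Ppara had the smallest unadjusted p for paclitaxel, at a change of −0.94 ± 0.29 (adjusted p = 0.514), with values of 1.68, 2.84 and 3.47 against 3.03, 3.71 and 4.16 in C26 saline and 5 of 7 paclitaxel libraries below every saline library. Hadha read 8.14, 8.42 and 8.51 with paclitaxel, 8.29, 8.60 and 9.21 with 5-fluorouracil and 8.37, 8.65 and 8.71 with cisplatin. Its paclitaxel change of −0.36 ± 0.15 was not called (adjusted p = 0.700), although all 7 paclitaxel libraries were below the saline mean. Lpl read 8.23, 8.76 and 9.19 with paclitaxel, and its change of −0.67 ± 0.25 was likewise not called (adjusted p = 0.640). With cisplatin, Lipe read 5.29, 5.41 and 5.75, with 5 of 6 libraries below every saline library and a change of −0.51 ± 0.21 (adjusted p = 0.186), and Pnpla2 read 7.21, 7.42 and 7.96, a change of −0.68 ± 0.27 (adjusted p = 0.171). Cpt2, which reconverts acylcarnitine inside the mitochondrion, and Ppard were the 2 members whose cisplatin and saline libraries did not overlap, at changes of −0.41 and −0.61 (adjusted p = 0.173 and 0.187). Across the 34 members the female cisplatin change was lower at higher transcript GC content (Pearson's r = −0.50, beside −0.34 over all genes). The mean GC slope was −0.15 in female cisplatin and 0.01 in female C26 saline libraries, and its part in these changes was not tested.

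Against female PBS, 0 members were called for 5-fluorouracil (0.383% of all genes) or cisplatin (0.209%), with 2 and 0 at an unadjusted p under 0.05 (6.64% and 8.47% of all genes). With paclitaxel only Hadh was called, which fell by 0.49 (adjusted p = 0.0495, 4.58% of all genes called), from 7.21, 7.35 and 7.66 to 6.54, 6.91 and 7.35. Leaving out any 1 of 11 libraries (PBS replicate 1, 2, 4, 5, 6 or 7 or paclitaxel replicate 1, 2, 3, 5 or 7) ended that call, at adjusted p of 0.0628 to 0.139, and without PBS replicate 3 or paclitaxel replicate 4 the count was 2. The Hadh call also ended with the filter on low values (−0.49, adjusted p = 0.0516) and without the steep-slope libraries (−0.51, adjusted p = 0.0518). Acsl1 was called lower than in PBS under some alternatives (−0.47 to −0.39, adjusted p = 0.0163 to 0.0440). These were quantile normalization, quality weights, the slope covariate and only the groups compared. With quality weights Cpt1b, Acaa2 and Etfa were called lower and Lipe higher (−0.33, −0.61, −0.33 and 0.48, adjusted p = 0.0160 to 0.0497).

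In males, 5-fluorouracil was followed by 1 member that rose (Mgll) and 2 that fell (Cd36 and Echs1), while 23.3% of all genes were called, 11.3% upward and 12% downward. Cd36 read 6.62, 7.64 and 8.81 with 5-fluorouracil, and 6 of 8 libraries were below every C26 saline library. The log2 change was −1.07 ± 0.32 (adjusted p = 0.0127), and the values covered those of male PBS mice. With GC slope as a covariate it was −0.46 (adjusted p = 0.0678) and without the libraries of slope above 0.1 it was −0.57 (adjusted p = 0.0609). Echs1 read 6.65, 7.02 and 7.57, 7 of 8 below every saline library, a change of −0.38 ± 0.13 (adjusted p = 0.0247). It was called with the covariate too (−0.40, adjusted p = 0.0199) but not without the steep-slope libraries (−0.18, adjusted p = 0.443), nor without saline replicate 3 or 5-fluorouracil replicate 4, 5 or 8 (−0.34 to −0.33, adjusted p = 0.0536 to 0.0667). Mgll read 5.30, 6.01 and 6.54 in C26 saline and 5.97, 6.42 and 6.98 with 5-fluorouracil, a change of 0.45 ± 0.16 (adjusted p = 0.0385) that was lost with the covariate (0.24, adjusted p = 0.225) and without saline replicate 1, 5 or 6 or 5-fluorouracil replicate 3, 4, 5 or 7 (0.35 to 0.45, adjusted p = 0.0556 to 0.122). Without the steep-slope libraries the change of Mgll was 0.21 and not called (adjusted p = 0.395). Nor was it called with quality weights (0.34, adjusted p = 0.113) or only the groups compared (0.45, adjusted p = 0.0763). The count of members called ran from 1 without 5-fluorouracil replicate 4 or 5 to 5 without saline replicate 4 and 6 without 5-fluorouracil replicate 2.

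Male cisplatin was followed by 1 called member, Echs1, which fell, while 15.9% of all genes were called, 7.66% upward and 8.23% downward. Echs1 read 6.30, 6.95 and 7.38 with cisplatin, with 6 of 8 libraries below every C26 saline library, and its log2 change was −0.46 ± 0.13 (adjusted p = 0.00757). It was as large with the slope as covariate (−0.47, adjusted p = 0.00336) and without the steep-slope libraries (−0.48, adjusted p = 0.00724). Cd36 read 6.92, 8.15 and 8.45 and Pnpla2 7.84, 8.04 and 9.44 with cisplatin. Their changes of −0.83 ± 0.32 and −0.58 ± 0.24 were not called (adjusted p = 0.0695 and 0.0896), and both were called with the covariate (−0.58 and −0.69, adjusted p = 0.0108 and 0.00974) and without the steep-slope libraries (−0.51 and −0.72, adjusted p = 0.0462 and 0.00870). The count of called members was 3 without saline replicate 4 or 8, 2 without cisplatin replicate 1 or 4 and 4 without cisplatin replicate 2. Neutrophil markers fell in 6 of 6 with cisplatin and with 5-fluorouracil in males, macrophage markers in 1 and 2 of 8, and 3 of 8 fast fibre markers rose with each. Their part in the changes of the members was not tested in these comparisons.

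Male paclitaxel had the most calls among the drugs in this pathway, 2 members that rose (Lipe and Mgll) and 5 that fell (Cd36, Acadl, Hadhb, Echs1 and Decr1), beside 31.9% of all genes called, 13.5% upward and 18.5% downward. Of the 6 paclitaxel libraries 4 had a GC slope above 0.1 (0.33 to 0.51) and a mitochondrially encoded share of 1.65 to 2.62%, and the other 2 had slopes of −0.03 and −0.09 and shares of 11.6 and 11.5%. With the slope as a covariate 0 of 34 members were called, against 3.46% of all genes. Without the libraries of slope above 0.1, which left 2 paclitaxel libraries, again 0 were called, against 5.21% of all genes.

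Cd36 read 5.79, 7.62 and 8.59 with paclitaxel, 5 of 6 libraries below every C26 saline library. The log2 change of −1.31 ± 0.35 (adjusted p = 0.00510) was −0.31 with the covariate (adjusted p = 0.429) and −0.50 without the steep-slope libraries (adjusted p = 0.300). Hadhb read 6.75, 8.16 and 8.74, and its change of −0.68 ± 0.25 (adjusted p = 0.0296) was −0.06 and −0.03 in those fits, and for Decr1, at 5.00, 6.24 and 6.91, −0.60 ± 0.23 (adjusted p = 0.0391) became −0.02 and 0.09. Hadhb and Decr1 thus had changes near 0 in both of those fits. The change of Cd36 was negative in both but called in neither, and the difference between these genes was not tested. Acadl read 6.82, 8.13 and 8.50, a change of −0.56 ± 0.20 (adjusted p = 0.0286) that was −0.39 and −0.25 there. Echs1 read 6.32, 7.12 and 7.30, with a change of −0.42 ± 0.14 (adjusted p = 0.0182). That change was −0.46 with the covariate (adjusted p = 0.0618) and −0.41 without the steep-slope libraries (adjusted p = 0.209), called in neither. The latter value rests on paclitaxel replicate 4, at 6.63, and replicate 6, at 7.30, which lies within the male C26 saline range (7.18 to 7.65).

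Lipe read 5.90, 6.11 and 6.45 with paclitaxel, all 6 libraries above the saline mean, and its change of 0.57 ± 0.20 (adjusted p = 0.0283) was 0.14 and 0.34 in the 2 slope fits. Mgll read 5.97, 6.37 and 7.05, a change of 0.47 ± 0.18 (adjusted p = 0.0360) that was 0.12 and 0.22. Paclitaxel replicate 5 was lowest for each of the 5 genes that fell, and without it 2 members were called, while without replicate 6 there were 11, without replicate 1 there were 3, and without replicate 2 or saline replicate 7 there were 4. Without replicate 5 the log2 change was −0.33 for Acadl, −0.43 for Hadhb, −0.29 for Echs1 and −0.37 for Decr1, none of them called (adjusted p = 0.122 to 0.238). Single calls also ended without saline replicate 1 or 6 or paclitaxel replicate 2, 3 or 5 (Lipe), saline replicate 1 or 6 or paclitaxel replicate 1, 2 or 3 (Mgll), saline replicate 3 or 7 or paclitaxel replicate 1 (Acadl), saline replicate 7 or paclitaxel replicate 1 (Hadhb) and saline replicate 2, 3, 4 or 7 or paclitaxel replicate 1, 2 or 3 (Decr1), at adjusted p of 0.0502 to 0.143. In a fit of only the groups compared, Mgll, Acadl, Hadhb, Echs1 and Decr1 were not called (adjusted p = 0.0591 to 0.113). In males, 6 of 13 mitochondrially encoded genes fell with paclitaxel, 4 of 8 fast fibre and 3 of 7 skeletal muscle markers rose, 2 endothelial markers rose and 1 fell, and 1 macrophage marker fell. Their part in the result was not tested.

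Across the 34 members, the male paclitaxel change followed the GC content of the transcript, which runs from 38.7% for Cd36 to 60.1% for Mlycd. Pearson's r was 0.82, beside 0.63 over the 13791 genes with a GC value, and it is a description over genes that share the same libraries. For male 5-fluorouracil it was 0.68 (0.44 over all genes), for male cisplatin 0.43 (0.18) and for the male tumour comparison −0.02 (−0.03). In females it was 0.17 for 5-fluorouracil (−0.08), 0.31 for paclitaxel (0.11), −0.50 for cisplatin (−0.34) and 0.20 for the tumour comparison (0.09). In the male tumour comparison the log2 change with the covariate was 0.94 for Cd36, 0.61 for Lpl, 0.98 for Pnpla2, 0.66 for Lipe, 0.60 for Echs1, 0.49 for Eci2 and −0.40 for Hadh, all called, and without the steep-slope libraries it was 0.76, 0.52, 1.01, 0.73, 0.63, 0.48 and −0.41 in the same order, all called but Lpl. The covariate fit called 10 members (40.6% of all genes), with Mlycd, Acadl and Ppard added, and the fit without the steep-slope libraries 8 (36.4% of all genes), with Mlycd and Ppard added.

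**Figure D4:**
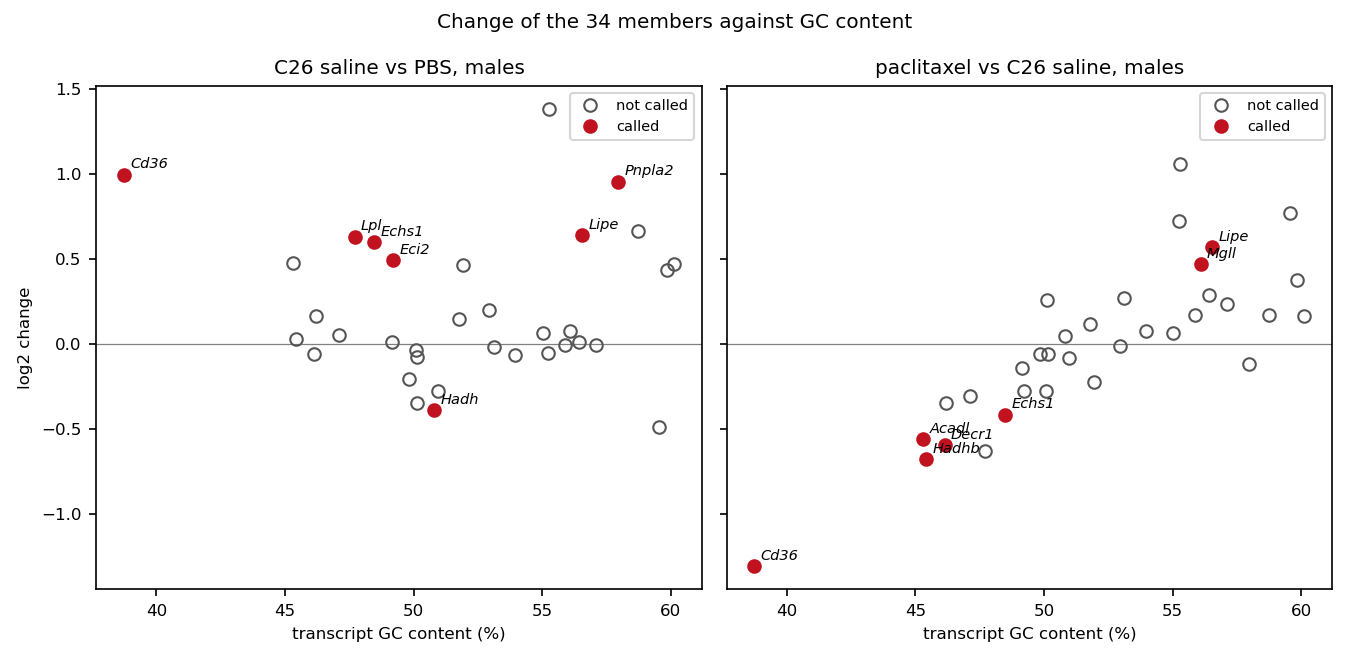
Log2 change of the 34 genes (y axis) against the GC content of their transcripts in percent (x axis), for the tumour comparison (left) and for paclitaxel against C26 saline (right) in males, with called genes filled and named. The points rise with GC content on the right (r = 0.82) and show no such slope on the left (r = −0.02).

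Hadha and Hadhb, which make the subunits of 1 complex and share the promoter printed above, gave a ratio within each library, chosen after the values had been seen. The adjusted p below covers the 8 comparisons and not this choice of pair. The log2 ratio of Hadhb to Hadha expression, not adjusted for length, was −0.67 to −0.04 in the 54 libraries of low slope (median −0.30) and −1.31 to −0.64 in the 19 of slope above 0.1 (median −1.04). In male paclitaxel libraries it was lower than in male C26 saline by 0.54 on average, from −0.84 ± 0.38 (SD, n = 6) against −0.30 ± 0.15 (SD, n = 8), with an exact two-sided permutation p of 0.00533 and an adjusted p of 0.0426 over 8 comparisons. Without the libraries of slope above 0.1 the difference was −0.06 (exact permutation p = 0.644, 2 against 8 libraries). PBS libraries of high slope had low ratios too, −0.89 and −0.81 in females and −0.70 and −0.64 in males. The GC content of the transcript was 45.43% for Hadhb and 49.15% for Hadha, and its part in the ratio was not tested.

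**Figure D5:**
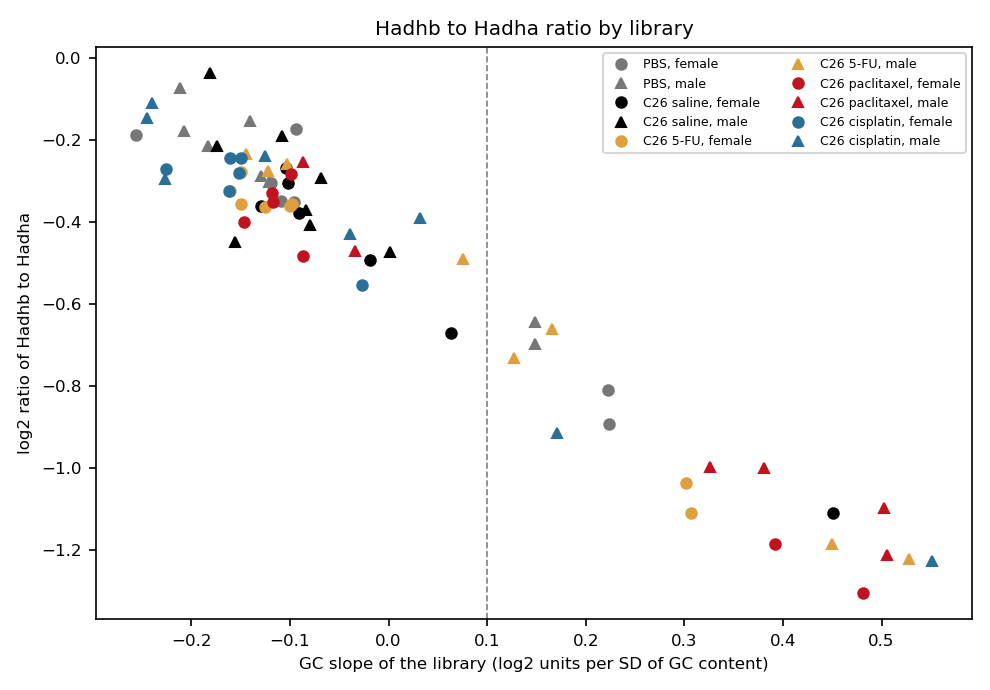
Log2 ratio of Hadhb to Hadha expression (y axis) against the GC slope of the library (x axis), 1 point per library, coloured by treatment arm, circles for females and triangles for males, with the dashed line at a slope of 0.1. The median ratio is −0.30 left of the line and −1.04 right of it, where 4 PBS libraries lie at −0.89 to −0.64 and the 1 C26 saline library at −1.11, and the ranges of both sides overlap (lowest −0.67 left, highest −0.64 right).

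Against male PBS, 5-fluorouracil left Lipe higher by 0.84 ± 0.19 (adjusted p = 0.00576, 4.48, 5.87 and 6.48 against 4.65, 4.90 and 5.29) and Mgll by 0.52 ± 0.16 (adjusted p = 0.0474), 2 of 34 beside 4.76% of all genes. With the slope as a covariate the change of Lipe was 0.60 and called (adjusted p = 0.0186), and it was not called without the steep-slope libraries (0.45, adjusted p = 0.283) or when only the groups compared were fitted (0.84, adjusted p = 0.0572). That of Mgll was called in neither slope fit (0.33 and 0.35, adjusted p = 0.191 and 0.315), nor with quantile normalization (0.45, adjusted p = 0.0564) or only the groups compared (0.52, adjusted p = 0.0907). The Mgll call was also lost without PBS replicate 1, 3, 4, 5, 6 or 7 or 5-fluorouracil replicate 3, 4, 5, 7 or 8, at adjusted p of 0.0506 to 0.162, and without 5-fluorouracil replicate 1 the count was 4. With cisplatin, Lipe alone was called (0.81 ± 0.19, adjusted p = 0.0174, 4.90, 5.77 and 6.68), beside 0.902% of all genes, and it lost the call without cisplatin replicate 4 (0.68, adjusted p = 0.0913), without the steep-slope libraries (0.68, adjusted p = 0.0743) and with only the groups compared (0.81, adjusted p = 0.0870), but not with the covariate (0.73, adjusted p = 0.00270). With paclitaxel 7 members rose (Angptl4, Pnpla2, Lipe, Mgll, Crat, Mlycd and Ppard) and 2 fell (Hadhb and Decr1), beside 37.5% of all genes (16.9% upward and 20.6% downward). Lipe was higher in all 6 paclitaxel libraries than in any PBS library, by 1.21 ± 0.20 (adjusted p = 3.02e-05), and Angptl4 by 2.44 ± 0.77 on average (adjusted p = 0.0124, 2.82, 5.16 and 5.89 against 0.22, 2.71 and 3.49). With the slope as covariate 2 members were called (9.32% of all genes), Lipe at 0.81 (adjusted p = 0.00190) and Cd36 at 0.63 (adjusted p = 0.0431), the latter against −0.31 without the covariate. Without the steep-slope libraries 0 were called (0.0722% of all genes). The change of Lipe was then 1.07 (adjusted p = 0.0638) and that of Angptl4 2.97 ± 1.18 (adjusted p = 0.291), with 2.09 under the covariate (adjusted p = 0.0930). For the other genes the change was given by 3 fits: over all libraries, with the covariate and without the steep-slope libraries. It was 0.84, 0.42 and 0.29 for Pnpla2, 0.54, 0.22 and 0.36 for Mgll, 0.30, 0.01 and 0.22 for Crat, and 0.63, 0.16 and 0.28 for Mlycd. For Ppard it was 0.81, 0.20 and −0.03, for Hadhb −0.65, −0.07 and −0.13, and for Decr1 −0.65, −0.11 and −0.07. With only the groups compared, Crat, Mlycd, Hadhb and Decr1 were not called (adjusted p = 0.0527 to 0.0825). Crat was not called with quantile normalization either (0.09, adjusted p = 0.300). Without paclitaxel replicate 1 the count was 5. Single calls ended, at adjusted p of 0.0517 to 0.194, without paclitaxel replicate 1 (Crat, Mlycd, Hadhb and Decr1), 2 (Mgll, Crat, Mlycd and Ppard), 3 (Pnpla2, Mgll, Crat and Mlycd) or 5 (Hadhb and Decr1), or without PBS replicate 1 or 5 (Crat and Hadhb), 3, 6 or 7 (Crat and Mlycd) or 8 (Crat). Acsl1 was called lower with paclitaxel than in PBS under some alternatives (−0.49 to −0.36, adjusted p = 0.00963 to 0.0499). These were quantile normalization, the filter on low values, quality weights and the replicate block. Hadh and Acadm were called lower with quantile normalization (−0.46 and −0.45, adjusted p = 0.0155 and 0.0483). Plin2 and Plin5 were called higher with quality weights (0.39 and 1.03, adjusted p = 0.0499 and 0.0382).

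Ucp3 and Angptl4 in males stood apart by their spread, and their lowest values lay in the same libraries. Both were lowest in replicate 1 of male PBS, C26 saline, 5-fluorouracil and paclitaxel. In male cisplatin both were lowest in replicate 2 (Angptl4 0.153, Ucp3 6.66), with replicate 1 next (0.595 and 7.073). What these libraries have in common was not tested. Ucp3 read 6.82, 9.35 and 9.96 with 5-fluorouracil, 6.86, 8.83 and 10.00 with paclitaxel and 6.66, 9.31 and 10.24 with cisplatin, changes of 0.98, 0.72 and 0.93 from C26 saline, none called (adjusted p = 0.0829, 0.221 and 0.134). Angptl4 read −0.77, 5.19 and 5.80 with 5-fluorouracil and 0.15, 4.73 and 6.20 with cisplatin, changes of 0.28 and 0.20. For Ucp3 each male C26 arm, and for Angptl4 each but paclitaxel, held libraries at or below the PBS median beside libraries over 1 log2 unit above it. The ranges were wider than those of Cpt1b (8.21, 8.58 and 9.04, 8.00, 8.72 and 9.06 and 8.14, 8.44 and 9.00 in the male 5-fluorouracil, paclitaxel and cisplatin arms). Male Hadha read 8.48, 8.94 and 9.59, 7.85, 8.98 and 9.23 and 8.44, 8.96 and 9.46 and Acadm 7.83, 8.43 and 9.05, 7.08, 8.34 and 8.57 and 7.97, 8.31 and 9.04 in those arms, with no call. Plin2 read 4.64, 5.22 and 5.79, 5.03, 5.18 and 5.74 and 4.64, 4.98 and 5.98, also with no call, and Ppara 2.72, 3.71 and 4.65, 2.46, 3.30 and 4.01 and 2.64, 3.20 and 4.23.

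In the limma fit 0 of 34 members were called for a sex difference of the tumour effect (0.0361% of all genes, 5 genes), with 0 at an unadjusted p under 0.05 (8.17% of all genes). For 5-fluorouracil, paclitaxel and cisplatin 0 of 34 were called, beside 0% of all genes each, with 0, 3 and 2 members at an unadjusted p under 0.05 (14.8%, 19.5% and 14.4% of all genes). With quality weights 9 members were called for paclitaxel, 8 with a higher change in males and 1 with a lower one, beside 26.8% of all genes. Across the 34 members the unweighted sex difference of the paclitaxel effect had r = 0.78 with transcript GC content (0.56 over all genes). For 5-fluorouracil and cisplatin r was 0.66 and 0.67 (0.49 and 0.45 over all genes). A slope above 0.1 was found in 4 of 6 male and 2 of 7 female paclitaxel libraries, and its part in the sex difference was not tested. The smallest unadjusted p was for Cpt1b with paclitaxel (male minus female 0.58 ± 0.23, adjusted p = 0.226 by limma). A count of calls in males and not in females therefore does not show that the sexes differ. Between male and female PBS mice 0 of 34 members were called, beside 3.39% of all genes, with 5 at an unadjusted p under 0.05 (13.4% of all genes). Acads, the short-chain acyl-CoA dehydrogenase, had the smallest unadjusted p there, at −0.94 ± 0.30 (adjusted p = 0.0675). Without female PBS replicate 1 the count was 1.

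Of 37 other genes of fatty acid metabolism, 3 rose and 0 fell with the tumour in females: Lpin1 (a phosphatidate phosphatase of triglyceride synthesis) by 0.86, Plin4 (a droplet coat protein) by 0.93 and Acot1 (a cytosolic acyl-CoA thioesterase) by 2.11. In males 11 rose and 6 fell, with Lpin1 at 1.18 ± 0.16 (adjusted p = 2.30e-08), Plin4 at 1.51 ± 0.24, Acss1 (mitochondrial acetyl-CoA synthetase) at 1.33 ± 0.27 and Acot11 (a thioesterase) at −1.22 ± 0.20. Over all genes 4.14% rose and 2.56% fell with the tumour in females, and 13.1% rose and 13% fell in males. Of 15 peroxisomal oxidation genes, Ehhadh (the peroxisomal bifunctional enzyme) fell by 0.78 in females, and in males Abcd2 (a peroxisomal transporter) fell by 1.26 and Pex11a (a peroxisome division factor) fell by 0.58. In the male drug comparisons, Acot11 rose by 0.98, 0.84 and 0.84 and Pex11a by 0.52, 0.44 and 0.48 with 5-fluorouracil, paclitaxel and cisplatin. Acot9 fell by 0.72, 0.79 and 0.63 and Vldlr, the very low density lipoprotein receptor, by 0.96, 0.97 and 0.88. Over the list of 37, 6 rose and 5 fell with 5-fluorouracil, 3 and 6 with paclitaxel and 1 and 3 with cisplatin, and of the 15 peroxisomal genes 3, 3 and 2 rose. Of all genes 11.3%, 13.5% and 7.66% rose and 12%, 18.5% and 8.23% fell in these male comparisons, in the same order. In females Acaca (acetyl-CoA carboxylase) rose by 0.73 and Acox3 fell by 0.27 with cisplatin, where 1.66% of all genes were called. With 5-fluorouracil or paclitaxel 0 genes of either list were called in females, beside 1.35% and 0% of all genes.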

How the data were processed

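Gene expression was measured by RNA sequencing. Per the labels' protocols, TRIzol and a purification column were used to isolate RNA, and paired ends were read on an Illumina instrument. The deposited table holds normalized log2 expression per library, on a scale like depth-scaled counts. The submitters' processing notes name FastQC, MultiQC, fastp, Salmon, edgeR, limma and the mouse build mm39/GRCm39. Roles and versions of these tools are not stated there.

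Of 75 samples in the labels, 73 libraries in 10 groups were used. A female library titled saline but labelled as treated with 5-fluorouracil was left out, and 1 further sample, a female PBS library, was not analysed here. Estimated depth was 11.4 to 40.5 M counts (median 22.5 M). It was derived by taking the lowest value of each library as no counts plus an offset of 0.5. On that scale 85.0 to 90.7% of values were within 0.02 of a whole count. These estimates were not used in any test. No pair of libraries of a group agreed within sampling noise: the closest had a mean chi-square of 14.9 per gene.

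limma 3.58.1 in R 4.3.3 was fitted to group means with an intensity trend (63 residual degrees of freedom). P-values were adjusted by the Benjamini-Hochberg method over 13856 genes in each of 20 comparisons, with 0.05 as threshold. The fit was tested on simulated data. Permutation tests went through every split of the libraries with numpy 2.4.6. Tables and figures used numpy as well, with pandas 2.3.3 and matplotlib 3.10.9. The GC slope of a library came from a regression on transcript GC content and length over 10637 genes whose mean log2 value reached 1 (GENCODE vM21 transcripts, matched for 99.5% of genes). Because slopes differed between groups, each comparison was repeated with the slope as covariate and without libraries of slope above 0.1. Other alternatives were quantile normalization, a filter at a mean log2 value of 1, log2(2 raised to the value, plus 1), sample quality weights, a fit of only the groups compared, a replicate block and leaving out each library.

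The members and the lists were chosen with earlier results of these data known. Members shown in every group are 10 fixed ones and up to 8 called per main comparison by smallest adjusted p, and up to 4 called genes per comparison were named from the other lists. The result of 1 gene of these lists is not reported here.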

Additional observations from a re-analysis of the deposited data

Results flagged for a closer look

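Among 180 sets of 1 gene in 1 group, over the 18 genes shown in full, 13 had a library far from the rest of its group by Dixon's criterion, which chance meets in about 1 in 20 groups. Male cisplatin replicate 4 was high for 3 lipid genes: Pnpla2 at 9.44 (others 7.84 to 8.46), Plin2 at 5.98 (4.64 to 5.20) and Mgll at 7.20 (5.70 to 6.34). Its GC slope was 0.55. Male paclitaxel replicate 5, with a slope of 0.50, was low for Hadh at 6.54 (7.32 to 7.69) and Acadl at 6.82 (8.02 to 8.50). In male C26 saline, Cd36 stood at 9.61 in replicate 7 (others 8.21 to 8.86) and Pnpla2 at 7.93 in replicate 8 (8.75 to 9.18). Eci2 was at 6.58 in male 5-fluorouracil replicate 2 (5.65 to 6.02) and at 5.26 in female PBS replicate 3 (5.52 to 5.71), and the female tumour call of Eci2 ended without the latter. Among the other female groups, Hadha was at 8.14 in paclitaxel replicate 2 (8.36 to 8.51) and Decr1 at 5.34 in C26 saline replicate 7 (6.21 to 6.84). In cisplatin replicate 2, Lipe was at 5.75 (5.29 to 5.43) and Decr1 at 5.99 (6.33 to 6.51).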

How the results depend on the processing

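Counts of called members are given here as the value under an alternative with the value reported above after it in parentheses. The share of all genes called moved between fits too, so these counts alone are not results about the members. For female cisplatin against C26 saline that share was 16.8% with quality weights (1.66%). For male paclitaxel against C26 saline it was 3.46% with the slope as covariate (31.9%). The cause of these moves was not tested.

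In a fit of only the groups compared, they were 4 (2) for the female tumour comparison, 3 (7) for male paclitaxel, 5 (0) for female cisplatin and 2 (1) for male cisplatin against C26 saline. Against PBS they were 0 (2) for male 5-fluorouracil, 3 (1) for female paclitaxel, 5 (9) for male paclitaxel and 0 (1) for male cisplatin, and 4 (0) between male and female PBS. With quality weights they were 11 (7) for the male tumour comparison, 4, 4 and 8 (0 each) for female 5-fluorouracil, paclitaxel and cisplatin, 2 (1) for male cisplatin, 6 (1) for female paclitaxel against PBS, 9 (0) for the sex difference with paclitaxel and 6 (0) between PBS groups. With quantile normalization they were 6 (3) for male 5-fluorouracil, 2 (1) for male cisplatin, 1 (2) for male 5-fluorouracil against PBS, 2 (1) for female paclitaxel against PBS and 1 (0) between PBS groups.

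Without the libraries of slope above 0.1 they were 1 (3) for male 5-fluorouracil (Hadh alone, at 0.46 with adjusted p = 0.0321, which is none of the 3), 0 (7) for male paclitaxel, 2 (0) for female cisplatin and 3 (1) for male cisplatin, and against PBS 0 for male 5-fluorouracil (2), female paclitaxel (1), male paclitaxel (9) and male cisplatin (1). With the GC slope as covariate they were 0 (7) for male paclitaxel, 3 (1) for male cisplatin, 1 (2) for male 5-fluorouracil against PBS, 2 (1) for female and 2 (9) for male paclitaxel against PBS, and 2 (0) between PBS groups. Without those libraries the sign reversed for Decr1 in male paclitaxel (0.090) and for Ppard in male paclitaxel against PBS (−0.034), and with the covariate for Cd36 in male paclitaxel against PBS (0.63).

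Deviations from group means of same-numbered libraries in different groups had a mean correlation of 0.0243, beside 0.00289 for other pairs. Of the 308 same-numbered pairs 124 were over 0.1. A mean over all numbers and both sexes cannot show whether some numbers pair samples. In males, Angptl4 and Ucp3 were lowest in replicate 1 of each group but cisplatin. Female Acads was lowest or next to lowest in replicate 1 of every group. Whether these libraries share a source was not tested. With a replicate block the count was 11 (7) for male paclitaxel and 1 (0) between PBS groups. With a filter at a mean log2 value of 1 it was 0 (1) for female paclitaxel against PBS, and adding 1 to the linear values moved no count by over 1.5 times.

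Leaving out 1 library gave 0 to 2 members for the female and 5 to 7 for the male tumour comparison, 9 to 12 for the averaged one, 1 to 6, 2 to 11 and 1 to 4 for male 5-fluorouracil, paclitaxel and cisplatin, and 0 for the female drugs against C26 saline. Against PBS it gave 1 to 4, 5 to 11 and 0 to 1 for the male drugs in that order, 0 to 2 for female paclitaxel and 0 for the other female drugs. It gave 0 to 1 between PBS groups and 0 for each sex difference. The number of libraries, 6 to 8 a group, limits the precision.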
